A study of Mus musculus with 14 samples.

Results

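The genes described here are those of the mitochondrial respiratory chain and ATP synthase, followed in mouse hematopoietic stem cells after short or prolonged exposure to the inflammatory cytokine interleukin-1β (IL-1β). Members were rows of the count table whose gene symbol begins with the stem of a respiratory complex gene: Ndufa, Ndufb, Ndufc, Ndufs, Ndufv, Sdh, Uqcr, Cox4 to Cox8, Atp5, or the mt-Nd, mt-Co, mt-Cytb and mt-Atp genes of the mitochondrial genome. Ndufaf assembly factors and pseudogene rows were left out, and a member needed at least 10 counts in 3 or more libraries. Of 24833 rows, 95 matched by symbol and 92 met the count rule, 84 of them nuclear and 8 mitochondrial. The 3 rows below it were Cox6a2 with 13 counts over all libraries, Cox7b2 with 11 and Cox8b with 2, and the row just inside it was Cox7a1 with 159 counts and 8 libraries at 10 or more. The nuclear members comprised 36 genes of complex I, 4 of complex II, 8 of complex III, 15 of complex IV, 15 of ATP synthase and 6 others (Sdhaf1 to Sdhaf4, Atp5s and Atp5sl). Ndufa4 was counted with complex IV, of which its protein is a subunit, despite its name. The mitochondrial members were mt-Nd1 to mt-Nd6 without mt-Nd4l, mt-Cytb and mt-Co1. The other protein genes of that genome have no row in the count table used here, so they were not analysed.

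All mice were C57BL/6, and the labels give neither age nor sex. IL-1β was given intraperitoneally at 0.5 µg per mouse per day for 1 day or 20 days, and control mice received phosphate-buffered saline (PBS) for the same time. Bone marrow cells of the phenotype LSK/Flk2-/CD48-/CD150+, a fraction enriched for hematopoietic stem cells, were sorted, and each library came from a pool of 3 to 5 mice. The 14 libraries formed 4 groups: PBS for 1 day (n = 3), IL-1β for 1 day (n = 3), PBS for 20 days (n = 4) and IL-1β for 20 days (n = 4). Sample titles further divide the libraries into 4 naming sets, each with as many IL-1β as PBS libraries. These were 10k (2 libraries, replicate 3 at 1 day), E060216 (4 libraries, replicates 1 and 2 at 1 day), E061316 (4 libraries, replicates 1 and 2 at 20 days) and a set with no tag (4 libraries, replicates 3 and 4 at 20 days). The titles of the 2 10k libraries carry no replicate number, and the number 3 was assigned here. What the tags stand for is not stated, so a set is treated here only as a group of libraries with a common title tag.

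The respiratory chain passes electrons from NADH and succinate through complexes I, II, III and IV to oxygen, and ATP synthase uses the proton gradient that complexes I, III and IV build to make ATP. Complex II is encoded wholly by nuclear genes, whereas the other complexes combine nuclear subunits with a few subunits made from the mitochondrial genome, so that 2 genomes must supply each of them. Long-term hematopoietic stem cells are known for a quiescent state that relies largely on glycolysis, and entry into cycle or differentiation is accompanied by greater use of oxidative phosphorylation.

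Counts-per-million values (CPM) are counts scaled to a fixed library total. Library totals ran from about 21654900 to 29441900 counts. Stem cell gate genes such as Kit and Hlf were detected in every library, and every gene of the 9 marker lists that is in the table had counts. The summed level of 13 neutrophil markers lay between 97.9 and 126 CPM after PBS and between 129 and 153 CPM after IL-1β at 1 day, without overlap. At 20 days it lay between 115 and 167 CPM after PBS and between 136 and 2854 CPM after IL-1β, with the highest in replicate 3 (set with no tag). At 1 day, 11 macrophage markers summed to 64.8 to 70.1 CPM after PBS and 42.2 to 53.5 CPM after IL-1β, also without overlap. The 2 genes that the sort gates against, Flt3 and Cd48, summed to 43.9 to 67.6 CPM in the 1-day groups and PBS for 20 days, and to 84.2 to 148 CPM after 20 days of IL-1β. Their part in the results below was not tested.

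Regulation of nuclear respiratory genes has been linked to nuclear respiratory factor 1 (NRF1), to the ETS factor GABP (also called nuclear respiratory factor 2), to YY1 and to the estrogen-related receptor ESRRA. RefSeq promoter windows (GRCm38.p6, 250 bases before to 50 after the start) were available for 72 of the 84 nuclear members. Each was searched on both strands for the letters GCGCA followed by any base and GCGC (NRF1), CCGGAAG (ETS), AAGATGGC (YY1), TCAAGGTCA (ESRRA) and CCAAT, and matches may overlap. NRF1 letters were found in 18 of 72 member windows (25%), against 4.78% of all 27025 windows and 6.60% of the 17492 windows of protein-coding genes. ETS letters were also found in 18 (25%), against 9.12% and 11.9%. YY1 letters were found in 10 (13.9%), against 2.88% and 3.22%, and ESRRA letters in 2 (2.78%), against 0.407% and 0.332%. The CCAAT box was found in 31 member windows (43.1%), close to the 37.9% and 39.0% of the 2 wider sets. In all, 31 windows held an ETS or an NRF1 match, 5 held both, and 18 held none of the 5 motifs. The windows of 4 genes are shown because their genes are described below and because they span this range, from several matches of different kinds to none. Each is written 5′ to 3′ on the gene's strand (minus for all 4), with motif matches in capitals. Cox6a1 (chr5:115348909-115349208) holds 2 NRF1 matches, 1 ETS match and 1 CCAAT box, Sdhd (chr9:50603800-50604099) an NRF1, an ETS and an ESRRA match, Atp5g1 (chr11:96075582-96075881) CCAAT boxes alone, 2 of them overlapping on opposite strands, and Ndufv1 (chr19:4012706-4013005) no match.
Cox6a1: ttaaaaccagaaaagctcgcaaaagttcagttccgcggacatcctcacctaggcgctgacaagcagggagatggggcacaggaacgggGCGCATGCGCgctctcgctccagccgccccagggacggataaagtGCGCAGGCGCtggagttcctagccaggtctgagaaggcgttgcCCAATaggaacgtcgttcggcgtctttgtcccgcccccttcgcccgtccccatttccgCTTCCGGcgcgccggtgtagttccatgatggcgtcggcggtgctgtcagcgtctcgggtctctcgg
Sdhd: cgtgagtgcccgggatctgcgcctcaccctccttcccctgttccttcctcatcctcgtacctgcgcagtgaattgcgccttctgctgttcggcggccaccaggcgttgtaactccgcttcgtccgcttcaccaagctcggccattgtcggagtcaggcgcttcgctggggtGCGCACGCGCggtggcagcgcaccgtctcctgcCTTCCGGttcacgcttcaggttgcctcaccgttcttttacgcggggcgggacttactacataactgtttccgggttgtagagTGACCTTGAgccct
Atp5g1: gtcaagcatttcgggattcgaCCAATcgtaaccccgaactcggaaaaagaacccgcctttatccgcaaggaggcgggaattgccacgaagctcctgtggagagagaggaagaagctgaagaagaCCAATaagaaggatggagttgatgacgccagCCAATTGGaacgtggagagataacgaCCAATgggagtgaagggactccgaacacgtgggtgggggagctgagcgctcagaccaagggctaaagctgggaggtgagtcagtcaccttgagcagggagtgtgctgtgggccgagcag
Ndufv1: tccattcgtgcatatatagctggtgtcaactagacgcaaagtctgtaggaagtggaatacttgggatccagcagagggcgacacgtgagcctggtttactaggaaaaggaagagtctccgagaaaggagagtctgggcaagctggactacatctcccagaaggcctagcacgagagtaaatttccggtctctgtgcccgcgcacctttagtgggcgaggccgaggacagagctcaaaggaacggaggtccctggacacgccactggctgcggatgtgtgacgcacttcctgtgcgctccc
A match is a description of letters in a window. Set beside the IL-1β differences reported below, the motif classes gave these values. At 1 day the median log2 difference was 0.29 for the 18 members with NRF1 letters and 0.28 for the 54 without, and at 20 days it was -0.14 and -0.11. For ETS letters the medians were 0.30 and 0.27 at 1 day and -0.12 and -0.12 at 20 days. For YY1 letters they were 0.24 for the 10 with and 0.29 for the 62 without at 1 day, and -0.043 and -0.13 at 20 days. For CCAAT they were 0.25 for the 31 with and 0.31 for the 41 without at 1 day, and -0.11 and -0.12 at 20 days.

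Levels were first compared between members as transcripts-per-million values (TPM), the unit in which counts are divided by the summed exon length of the gene and scaled to a fixed total, in the 7 PBS libraries. Of the 92 members, 85 lay above the median of the genes tested, which was 21.2 TPM, and the median member stood at 242 TPM. The 3 highest members were mitochondrial: mt-Cytb, the cytochrome b of complex III, at 3985 ± 644 TPM (SD, n = 7), mt-Co1, the catalytic subunit of complex IV, at 2535 ± 445, and mt-Nd1 of complex I at 1709 ± 223. The highest nuclear members were the catalytic β and α subunits of ATP synthase, Atp5b at 1451 ± 71.7 TPM and Atp5a1 at 1422 ± 127 TPM. Next came 4 complex IV subunits, Cox6b1 at 993 ± 152, Cox6a1 at 869.8 ± 141, Cox8a at 852 ± 119 and Cox4i1 at 752 ± 95.0 TPM. These SDs are spreads over the same 7 libraries, so they do not measure the uncertainty of a difference between genes. By complex, the median TPM of nuclear members was 205 for complex I, 396 for complex II, 365 for complex III, 245 for complex IV and 235 for ATP synthase, and 43.0 for the 6 other genes. The lowest members were Cox7a1, the muscle and heart form of a complex IV subunit, at 2.59 ± 1.01 TPM, and Atp5l, subunit g of ATP synthase, at 2.81 ± 0.372 TPM. The exon length includes all annotated transcripts, so a rarely used long exon lowers this value, and the Atp5l model spans 6443 bases.

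**Figure D1:**
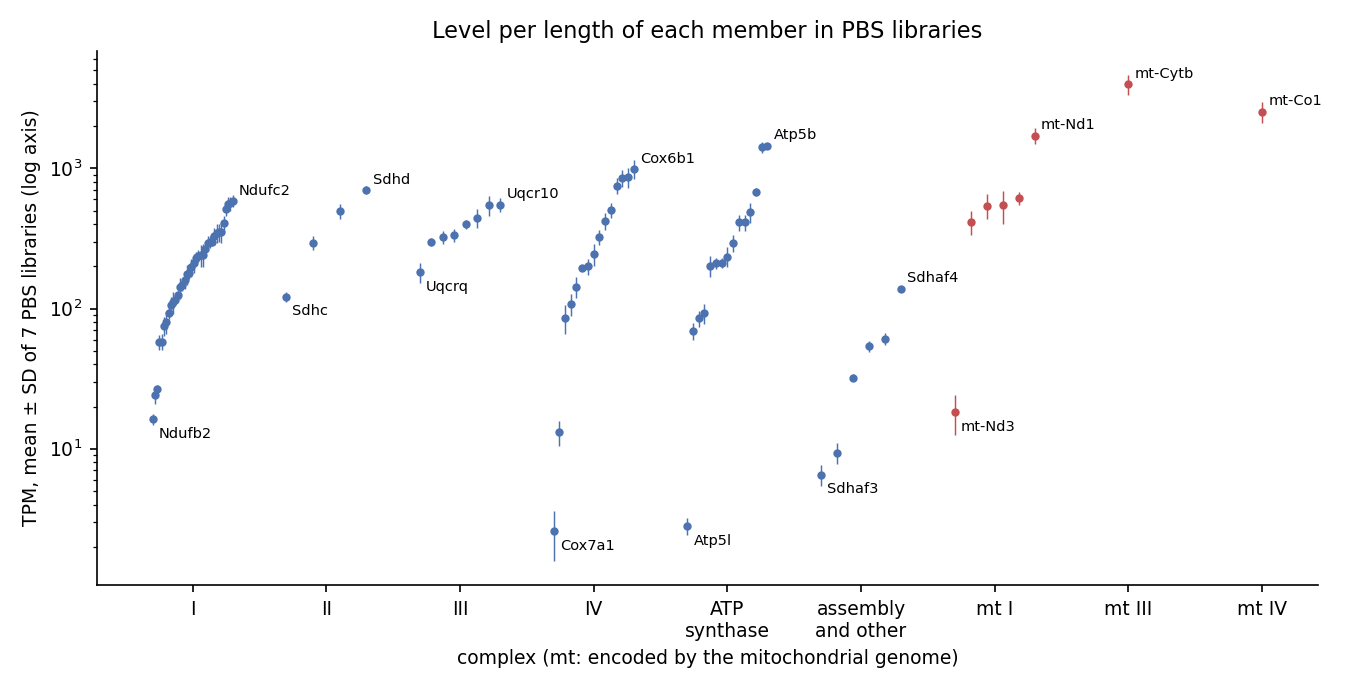
Level of each of the 92 members in the 7 PBS libraries, as TPM on a log axis, grouped by complex on the horizontal axis. Points are means and bars are SD. Mitochondrial members are in red, and the lowest and highest member of each class are named: mt-Cytb is highest and Cox7a1 lowest.

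Copies of some members elsewhere in the genome limit what their counts can show. For 8 members, at least 20% of the 100-base windows of their transcripts also occur at another gene: mt-Nd3 (97.6%), Sdhaf1 (68.3%), mt-Nd4 (60.8%), Atp5g2 (34.7%), mt-Co1 (30.8%), Atp5o (27.9%), Ndufa13 (24.0%) and Ndufb6 (24.0%). The library kit does not keep strand, and exons of 31 members overlap a gene on the other strand, so that reads from either gene cannot be told apart there. Values for these genes are therefore uncertain. The windows of mt-Nd3 occur also at Gm28438, those of mt-Nd4 at Gm28439 and those of mt-Co1 at Gm29216 and Gm13340. mt-Nd3 was the lowest mitochondrial member, at 18.3 TPM.

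After 1 day of IL-1β, in the fit over both naming sets, the nuclear subunit genes of all 5 complexes lay slightly above PBS. The genes of the mitochondrial genome lay below it in that fit, but within the 10k set 6 of 8 lay above 0. No single member passed the test. The fitted difference (log2 IL-1β over PBS, with naming set in the model) was above 0 for 76 of 78 nuclear subunit genes, with a median of 0.30, while 48.0% of the 15466 genes tested lay above 0 and their median was -0.015. All 8 mitochondrial members lay below 0, with a median of -0.39 that ran from -0.61 without IL-1β replicate 3 to -0.14 without PBS replicate 1. By complex, the median was 0.25 for complex I (35 of 36 above 0), 0.29 for complex II (4 of 4), 0.29 for complex III (8 of 8), 0.33 for complex IV (14 of 15) and 0.33 for ATP synthase (15 of 15). The 6 other nuclear genes stood at -0.022. With edgeR's quasi-likelihood test, 0 members were called higher and 0 lower at an adjusted p under 0.05, where 2.52% of all genes were called higher and 1.83% lower. At an unadjusted p under 0.05, 26 members lay higher and 3 lower, against 9.44% and 9.30% of all genes, and the DESeq2 Wald test called 7 higher and 1 lower, against 5.42% and 4.81%. In sorted bulk RNA, a change in the mix of cells and a change in RNA per cell cannot be told apart.

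Summed over genes, complexes II and V separated the 1-day groups. Complex II, succinate dehydrogenase, which also belongs to the citric acid cycle, summed to 1087, 1088 and 1152 CPM of all counts in the 3 PBS libraries and to 1366, 1309 and 1277 CPM in the 3 IL-1β libraries. ATP synthase summed to 4826, 4618 and 5561 CPM after PBS and 6019, 5702 and 6228 CPM after IL-1β. Neither pair of groups overlapped. Complexes I, III and IV overlapped. Their sums, like that of ATP synthase, were highest in the 10k library (replicate 3) of each group. The ATP synthase groups came nearest at 5561 CPM in the 10k PBS library and 5702 CPM in an E060216 IL-1β library. Complex III was at 1252, 1146 and 1564 CPM after PBS and 1453, 1354 and 1760.3 CPM after IL-1β. Within each naming set at 1 day, the IL-1β library or libraries lay above the PBS ones for all 5 complexes. The 77 cytosolic ribosomal protein genes were also highest in the 10k libraries at 1 day, at 27582 CPM after PBS and 27671 CPM after IL-1β, against 20138 to 22855 CPM in E060216, and their part in the sums was not tested.

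**Figure D2:**
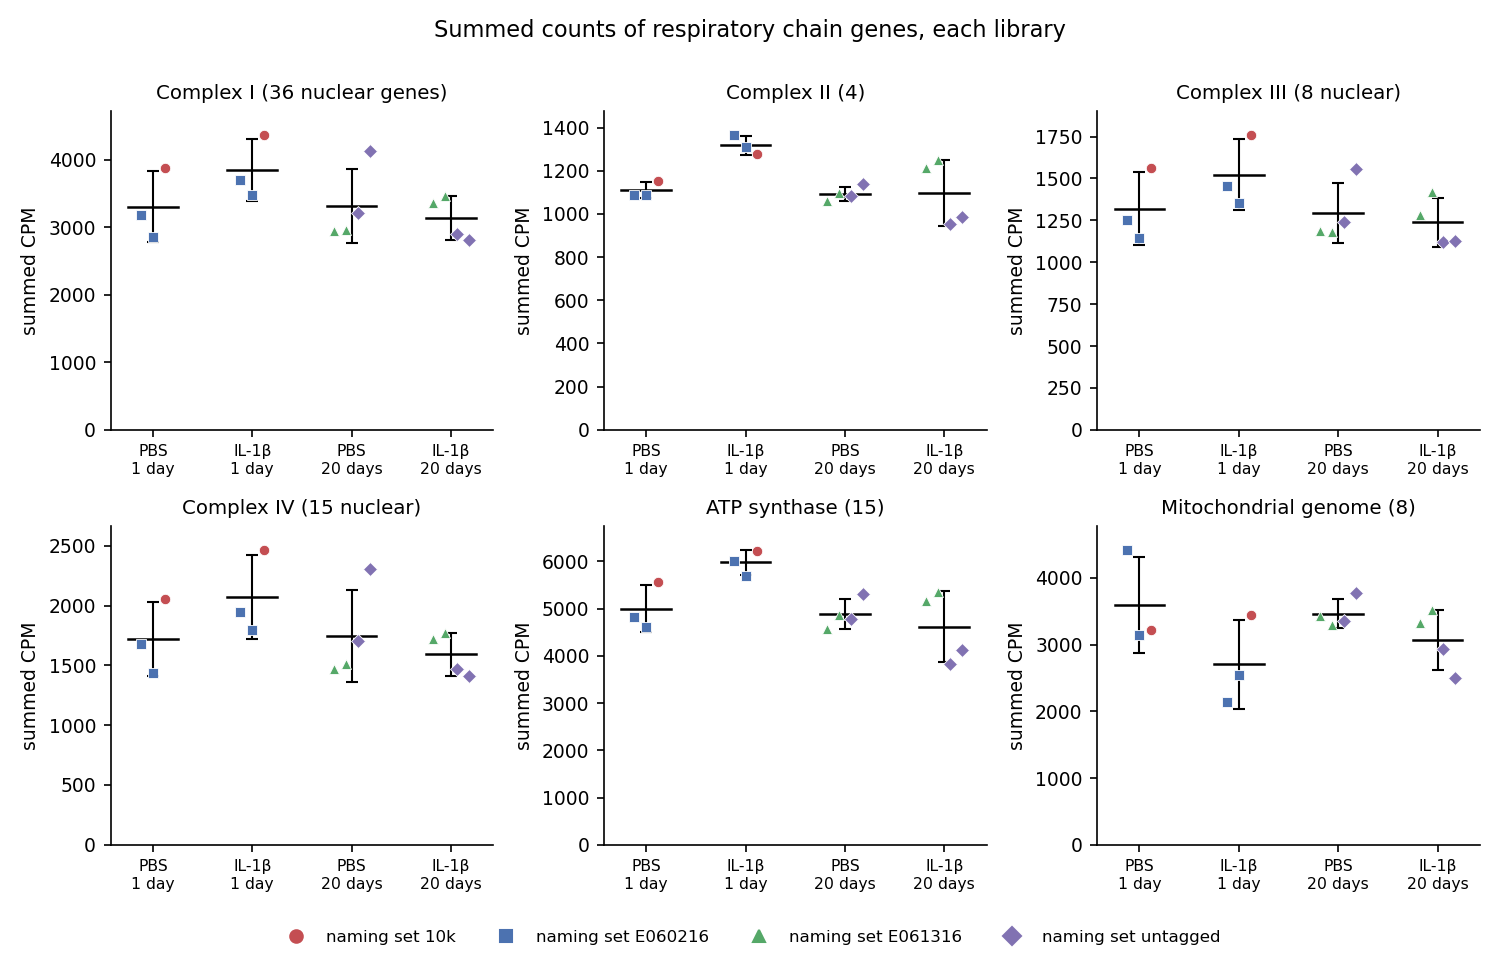
Summed CPM of all counts (vertical axis) of the nuclear members of each complex and of the 8 mitochondrial members, for each of the 14 libraries by group. Points are libraries, marked by naming set, and bars give the mean and SD. At 1 day, complex II and ATP synthase show no overlap between PBS and IL-1β; at 20 days the IL-1β libraries of E061316 lie above their PBS libraries for all 5 complexes and the untagged ones below theirs.

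In complex I, Ndufv1, the flavoprotein subunit that accepts electrons from NADH, was at a TMM-scaled CPM of 161, 153 and 207 after PBS and 223, 209.9 and 253 after IL-1β, without overlap. Its log2 difference was 0.41 ± 0.12 (SE, adjusted p = 0.0811, edgeR). At 1 day, 5 members had every IL-1β library above every PBS library, namely Atp5a1, Atp5b, Ndufa9, Ndufab1 and Ndufv1, and mt-Co1 had every one below, where 8.75% of all genes separated upward and 8.91% downward.

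All 4 subunits of complex II, the 2 outside the membrane and the 2 within it, lay higher with IL-1β within each naming set. Sdha, the flavoprotein that oxidizes succinate, was at 561, 605 and 553 after PBS and 783, 749 and 570.5 after IL-1β, a difference of 0.28 ± 0.10 (adjusted p = 0.136). Sdhb, the iron-sulfur subunit, was at 164, 159 and 233 and 232, 213 and 258, a difference of 0.36 ± 0.14 (adjusted p = 0.195). The membrane anchors Sdhc and Sdhd stood at 0.21 ± 0.14 and 0.31 ± 0.13 (adjusted p = 0.443 and 0.207). For each of the 4 genes the groups overlapped through the 10k libraries, unlike for their sum.

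In complex III, Uqcrq, a small subunit beside cytochrome b, was at 77.9, 71.4 and 123 after PBS and 119, 96.4 and 156 after IL-1β. Its difference was 0.46 ± 0.15 (adjusted p = 0.0960), and the 10k PBS library lay above both E060216 IL-1β libraries. The core subunit Uqcrc1 stood at 0.31 ± 0.11 (adjusted p = 0.154), and its partner Uqcrc2 at 0.049 ± 0.11 (adjusted p = 0.872). In complex IV, Cox6a1, a regulatory subunit in its widely expressed form, was at 156, 132 and 212 after PBS and 223, 201 and 272 after IL-1β, with overlap again at the 10k PBS library. Its difference was 0.49 ± 0.17 (adjusted p = 0.114), and that of Cox5b, a zinc-binding subunit, was 0.39 ± 0.15 (adjusted p = 0.173).

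The highest nuclear member, Atp5b, was at 1574, 1666 and 1866 after PBS and 2294, 2131 and 2104 after IL-1β, with no overlap and a difference of 0.36 ± 0.12 (adjusted p = 0.112). Atp5o, a stalk subunit, stood at 0.42 ± 0.16 (adjusted p = 0.164). None of these differences passed the threshold in this fit. Without PBS replicate 4 at 20 days, a library of the other duration, 15 members were called higher and 1 lower, against 4.93% and 3.16% of all genes. With the 1-day libraries fitted alone, 20 were called higher and 1 lower, against 5.01% and 3.47%.

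In the fit over both naming sets the mitochondrial genome gave the opposite direction at 1 day, led by mt-Co1 (mitochondrial genome, 5328 to 6872). Its CPM was 1423, 1001 and 1064 after PBS and 588, 756 and 932 after IL-1β, without overlap. The difference was -0.63 ± 0.17 (adjusted p = 0.0544), just short of the threshold, and it passed with upper-quartile scaling (adjusted p = 0.0450) and with DESeq2 (adjusted p = 0.00472). Over the fits with 1 library left out it ran from -0.85 to -0.41, the latter without PBS replicate 1, with edgeR adjusted p from 0.0244 to 0.308. Without PBS replicate 1 the differences of mt-Nd4 and mt-Nd2 given next became -0.26 and -0.089. The complex I genes mt-Nd4 and mt-Nd5 stood at -0.59 ± 0.23 and -0.37 ± 0.15 (adjusted p = 0.185 and 0.177). For mt-Nd4 the groups overlapped, with 243, 143 and 240.2 CPM after PBS and 95.4, 112 and 244 after IL-1β. mt-Nd6, the one member here encoded on the light strand, stood at -0.54 ± 0.27, mt-Nd2 at -0.40 ± 0.22, mt-Cytb at -0.26 ± 0.15, mt-Nd1 at -0.11 ± 0.19 and mt-Nd3 at -0.18 ± 0.45, with adjusted p from 0.299 to 0.885. The differences of mt-Nd1 without PBS replicate 1 and of mt-Nd3 without either 10k library lay above 0.

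The ratio of mitochondrial to nuclear subunit counts was 0.368, 0.282 and 0.226 in the PBS libraries at 1 day and 0.147, 0.186 and 0.214 in the IL-1β libraries. The groups did not overlap, although the 10k pair, at 0.226 and 0.214, nearly met. At 20 days the ratio was 0.305, 0.283, 0.279 and 0.262 after PBS and 0.261, 0.266, 0.286 and 0.239 after IL-1β, with overlap. The mean was 0.292 ± 0.0713 (SD, n = 3) against 0.183 ± 0.0332 (n = 3) at 1 day, and 0.282 ± 0.0178 (n = 4) against 0.263 ± 0.0193 (n = 4) at 20 days. No test is given for the ratio, since the members were chosen with earlier results of these data known.

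**Figure D3:**
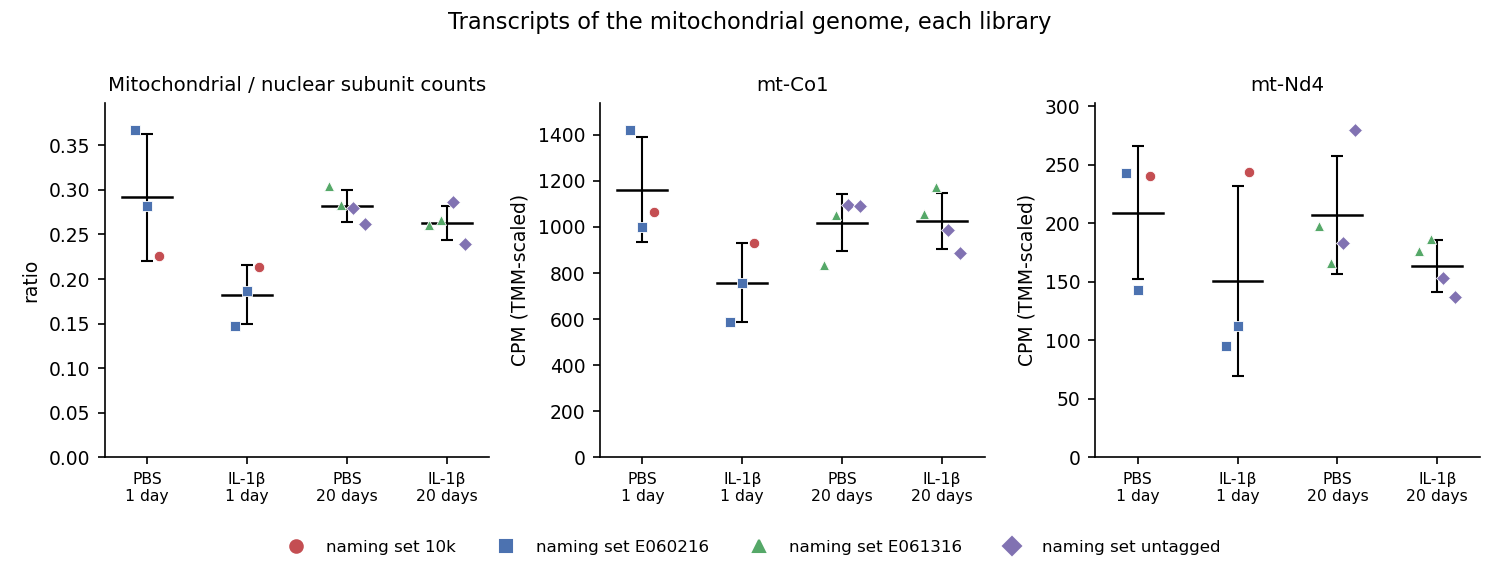
Ratio of summed mitochondrial to summed nuclear subunit counts, and scaled CPM of mt-Co1 and mt-Nd4 (vertical axes), for each library by group. Points are libraries marked by naming set, and bars give the mean and SD. At 1 day the ratio and mt-Co1 are lower in all 3 IL-1β libraries than in any PBS library, while mt-Nd4 is as high in the 10k IL-1β library as after PBS.

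The 2 naming sets at 1 day gave unequal values. Of the 8 mitochondrial members, 7 lay below 0 in E060216 and 6 lay above 0 in 10k. A fit with a separate IL-1β effect for each naming set, added after the data were seen, gave a median of 0.34 for the 84 nuclear and -0.61 for the 8 mitochondrial members in E060216, where 81 of 92 lay above 0, against 48.2% of all genes. It called 17 nuclear members higher and 3 mitochondrial members lower, where 4.74% and 2.71% of all genes were called. Among the 17 that rose were Ndufa9 (0.51), Ndufs1, Ndufv2 and Ndufa10 of complex I, Sdha and Sdhb, Uqcrc1, Cox6a1, Cox5a and Ndufa4 of complex IV, and Atp5b, Atp5d, Atp5g3, Atp5f1, Atp5a1 and Atp5o (0.52). The 3 that fell were mt-Co1 (-0.85, adjusted p = 0.00893), mt-Nd4 (-0.90, adjusted p = 0.0315) and mt-Nd5 (-0.58, adjusted p = 0.0184). With 1 of the 4 libraries left out, the calls came to 1 higher and 0 lower without PBS replicate 1, where 1.54% and 1.32% of all genes were called, and to 1 and 5 without PBS replicate 2 (1.44% and 0.593%). They came to 0 and 0 without IL-1β replicate 1 (0.915% and 0.311%) and to 4 and 2 without IL-1β replicate 2 (2.50% and 1.23%). The mitochondrial median was -0.35 without PBS replicate 1 and -0.86 without PBS replicate 2.

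In the 10k set, with 1 library per group taken to vary like the other groups, the medians were 0.15 and 0.059, 78 of 92 lay above 0, against 48.6% of all genes, and 0 members were called, where 0.0129% of genes were called higher and 0% lower. At an unadjusted p under 0.05, 1 member lay higher and 1 lower in that set, against 5.81% and 6.25% of all genes. The difference between the effects of the 2 sets was itself tested, and edgeR called 0 members and 0 of all 15466 genes in either direction. At an unadjusted p under 0.05, 4 members had the higher and 6 the lower effect in E060216, the 6 all mitochondrial, against 4.77% and 5.44% of all genes. DESeq2 was not run on this fit.

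After 20 days of IL-1β, 1 member fell and no other passed the test. Cox4i2 (GRCm38 chromosome 2, 152754173 to 152765037, plus strand) encodes the isoform of subunit IV found in lung and induced by low oxygen. It was at 2.29, 2.60, 2.47 and 3.41 CPM after PBS and 1.26, 1.22, 1.21 and 1.17 CPM after IL-1β. These values rest on 52 to 78 counts and 28 to 35 counts per library. Each IL-1β library at 20 days lay below each of the other 10 libraries, and the group stood at 1.22 ± 0.0338 (SD, n = 4). At 28 to 35 counts per library this spread is narrower than counting noise alone would give, so it does not measure precision. The log2 difference was -1.14 ± 0.26 (adjusted p = 0.0161, edgeR), with 3.52% of all genes called lower and 3.94% higher. The difference stayed between -1.21 and -1.01 when each library was left out, but it no longer passed when IL-1β replicate 4 at 20 days was left out (adjusted p = 0.0556), with a replicate block (adjusted p = 0.0557) and with the 20-day libraries fitted alone (adjusted p = 0.0599).

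The other members stayed closer to PBS at 20 days. The fitted difference lay below 0 for 69 of 78 nuclear subunit genes, with a median of -0.12, and for 7 of 8 mitochondrial members, with a median of -0.29, while the median of all genes tested was -0.00031. At an unadjusted p under 0.05, 0 members lay higher and 6 lower, against 10.3% and 10.1% of all genes, and DESeq2 called 0 higher and 3 lower, against 6.60% and 6.35%. By complex, medians were -0.11, -0.040, -0.11 and -0.13 for complexes I to IV and -0.13 for ATP synthase. Without PBS replicate 4 the nuclear median was 0.031, so the direction of the nuclear median at 20 days rests on that library. Beside these values, 5 T and NK cell markers summed to 106 to 121 CPM in the IL-1β libraries at 20 days and to 58.2 to 90.9 in all others, and 6 megakaryocyte markers to 859 to 1474 and 549 to 914. Their part in the result was not tested.

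Atp5g1 and Ndufa12 came near the threshold. Atp5g1, one of 3 genes that encode the same c-ring subunit of ATP synthase, was at 104, 107, 114 and 141 after PBS and 96.4, 109, 76.4 and 70.3 after IL-1β, overlapping in 1 IL-1β library. Its difference was -0.42 ± 0.14 (adjusted p = 0.0882). Ndufa12, an accessory subunit of complex I, was at 64.9, 61.4, 69.0 and 93.4 and 58.0, 60.9, 54.8 and 51.1, with no overlap, and differed by -0.35 ± 0.12 (adjusted p = 0.0982), or by -0.21 without PBS replicate 4. Cox4i2 and Ndufa12 were the 2 members with no overlap at 20 days, both lower, where 4.99% of all genes separated downward and 5.39% upward. Other small-p members were Atp5d at -0.26 ± 0.12, Uqcrq at -0.28 ± 0.13 and Ndufb2 at -0.26 ± 0.12, with adjusted p from 0.230 to 0.255, and Uqcrq stood at -0.14 without PBS replicate 4. All 4 complex II genes lay between -0.10 (Sdhd) and 0.045 (Sdha). Among mitochondrial members, mt-Nd3 stood at -0.66 ± 0.40, mt-Nd2 at -0.38 ± 0.19, mt-Nd1 at -0.37 ± 0.17 and mt-Nd4 at -0.34 ± 0.20. mt-Nd5, mt-Nd6 and mt-Cytb stood between -0.25 and -0.24, and mt-Co1 at 0.0091 ± 0.15, with adjusted p of at least 0.230 for all 8.

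Several subunits exist in isoforms, and the share of each isoform is a measure within a library. Cox4i1, the ubiquitous form, was at 279.8, 299, 316 and 413 CPM after PBS and 323, 337, 271 and 263 after IL-1β, with overlap and a difference of -0.13 ± 0.12 (adjusted p = 0.623). Cox4i2 made up 0.817% ± 0.0345 (SD, n = 4) of the counts of the pair after PBS and 0.410% ± 0.0423 (n = 4) after IL-1β at 20 days, and 0.954% ± 0.157 (n = 3) and 0.931% ± 0.108 (n = 3) at 1 day. Cox6b2, the testis form of a complex IV subunit, had a difference above 0, at 18.2, 22.0, 27.9 and 39.6 after PBS and 27.2, 28.1, 35.3 and 36.8 after IL-1β, with overlap and a value of 0.28 ± 0.13 (adjusted p = 0.260). It passed without PBS replicate 4 (adjusted p = 0.0365). Its share of the Cox6b1 and Cox6b2 counts was 10.3% to 13.3% in the PBS libraries and 11.8% to 20.0% in the IL-1β libraries at 20 days, so that the groups overlapped.

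Atp5g1 made up 28.6% to 31.4% of the counts of the 3 Atp5g genes in the 4 PBS libraries at 20 days and 25.9% to 27.0% in the 4 IL-1β libraries, so the groups did not overlap. At 1 day the ranges were 28.6% to 29.8% and 27.1% to 28.9%. Atp5g3 held 60.3% to 63.9% after PBS and 64.6% to 64.9% after IL-1β at 20 days. Its ranges at 1 day were 62.3% to 63.2% and 63.6% to 64.4%, also without overlap. Atp5g2 held under 10% in every library. The share of Cox7a2l among Cox7a2 and Cox7a2l counts was 43.6% ± 2.70 after PBS and 44.5% ± 3.58 after IL-1β at 20 days. At 1 day it was 40.3% ± 3.10 and 34.5% ± 3.38. Cox7a2l itself stood at -0.028 ± 0.095 at 1 day, and Cox7a2 at 0.33 ± 0.16.

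**Figure D4:**
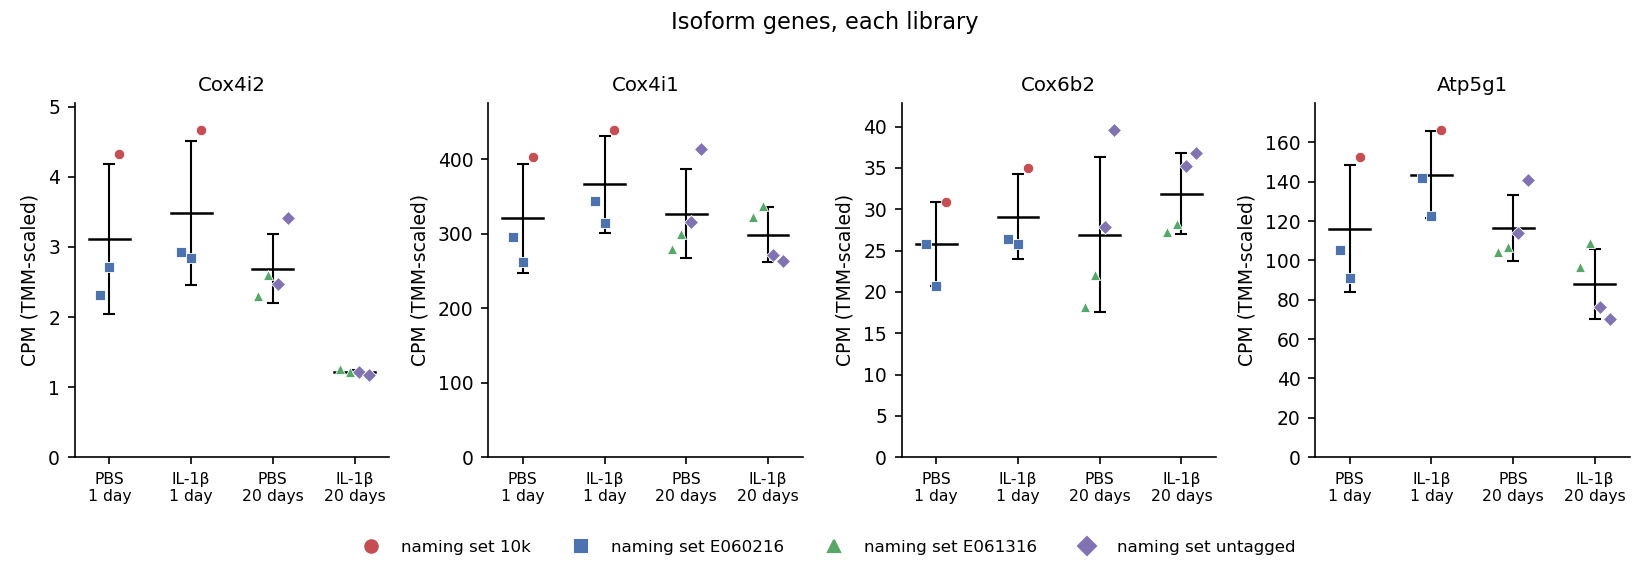
Scaled CPM (vertical axes, each from 0) of Cox4i2, Cox4i1, Cox6b2 and Atp5g1 in each library by group, with naming set as the marker and bars for the mean and SD. The 4 IL-1β libraries at 20 days lie together near 1.2 CPM for Cox4i2, below all other libraries, while Cox4i1 overlaps between groups.

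The nuclear members of the 2 naming sets at 20 days lay on opposite sides of 0. In E061316, 71 of 78 nuclear subunit genes lay above 0, with a median of 0.23 over the 84 nuclear members, and the mitochondrial median was -0.017 (5 of 8 below 0). In the set with no tag, 75 of 78 lay below 0, with a nuclear median of -0.42 and a mitochondrial median of -0.70. In E061316 edgeR called 0 members, where 1.30% of genes were called higher and 1.57% lower, and 23 members lay higher and 1 lower at an unadjusted p under 0.05, against 8.33% and 8.67% of all genes. In the set with no tag it called 45 nuclear and 3 mitochondrial members lower and 0 higher, where 7.10% and 5.70% of all genes were called. Those that fell comprised 17 of 36 genes of complex I, 3 of 4 of complex II, 4 of 8 of complex III, 9 of 15 of complex IV and 12 of 15 of ATP synthase. The smallest adjusted p values belonged to Atp5g1 (-0.80 ± 0.13, adjusted p = 0.00343), Ndufa4 (-0.68 ± 0.11, adjusted p = 0.00366) and Atp5d (-0.57 ± 0.10, adjusted p = 0.00433). The 3 mitochondrial genes were mt-Nd1 (-0.75), mt-Nd2 (-0.73) and mt-Nd5 (-0.43).

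The count in the set with no tag changed with the libraries left out. Without PBS replicate 4 it came to 4 members called lower, where 3.81% of all genes were, and a nuclear median of -0.22. Without PBS replicate 3 it came to 72 (10.4% of all genes) and -0.62. Without IL-1β replicate 3, the library with the high neutrophil markers, it came to 9 (2.95%) and -0.47, and without IL-1β replicate 4 to 4 (1.25%) and -0.44. PBS replicate 4 at 20 days also had the highest sum of 77 cytosolic ribosomal protein genes of all libraries (32140 CPM, against 20138 to 27671 in the others) and of mitochondrial ribosomal RNA (1930 CPM, against 540 to 1431). The part of these values in the result was not tested.

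The difference between the 2 sets at 20 days was tested directly. It was below 0 for 77 of 78 nuclear subunit genes, with a median of -0.66 over nuclear and -0.68 over mitochondrial members, and lay at an unadjusted p under 0.05 for 74 members, against 10% of all genes, with 0 members higher, against 8.71%. After adjustment, edgeR called 1 member, Ndufa4, lower, where 0.0776% of genes were called lower and 0.0905% higher. Ndufa4 was at 160.0, 171, 196 and 244 CPM after PBS and 188, 199.6, 139 and 135 after IL-1β, so that IL-1β values lay above PBS in the first 2 libraries of each group (E061316) and below in the last 2 (no tag). The difference of the effects was -0.91 ± 0.16 (adjusted p = 0.0499), made up of 0.23 ± 0.11 (adjusted p = 0.329) in E061316 and -0.68 ± 0.11 in the set with no tag. Cox4i2 lay below 0 in both sets, at -0.98 ± 0.37 (adjusted p = 0.191) and -1.29 ± 0.37 (adjusted p = 0.0386), and the difference between sets was -0.31 ± 0.52 (adjusted p = 0.802).

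**Figure D5:**
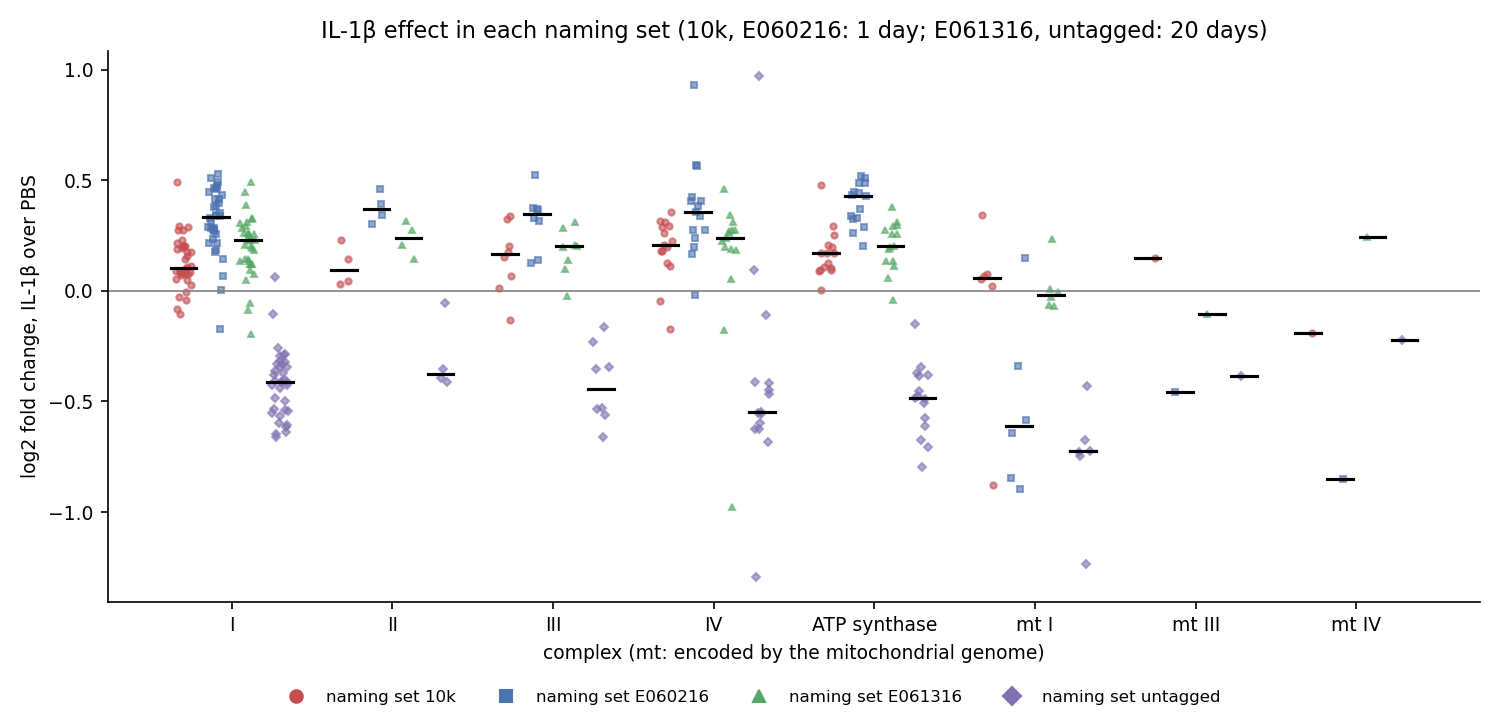
Log2 fold change of IL-1β over PBS (vertical axis) of each member within each naming set, by complex on the horizontal axis (mt marks genes of the mitochondrial genome). Small points are genes and black lines are medians. Nuclear members lie mostly above 0 in both 1-day sets and in E061316, and mostly below 0 in the untagged set.

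The naming sets also differed from each other apart from IL-1β. At 1 day, E060216 lay below 10k for 74 of 78 nuclear subunit genes, with a median of -0.41. Uqcrq (-0.63 ± 0.15, adjusted p = 0.0264) and Ndufs8 (-0.55 ± 0.16, adjusted p = 0.0471) were called lower, where 2.26% of all genes were called lower and 5.18% higher. The count lower was 29 with DESeq2, where 8.12% of all genes were called lower, and 61 without PBS replicate 4 at 20 days, where 10.1% were. Across the 84 nuclear members this difference had a Spearman correlation of 0.40 with exon length, and across 14646 tested genes of 0.34, a description over genes that share the same libraries. Members were short, with a median exon length of 1578 bases against 4048 for the genes tested. At 20 days, the set with no tag lay higher than E061316 for Cox6b2 (0.56 ± 0.13, adjusted p = 0.0309) and lower for Sdha (-0.32 ± 0.086, adjusted p = 0.0439), where 2.34% and 2.71% of genes were called. At an unadjusted p under 0.05, 3 members lay higher and 5 lower, against 9.87% and 12.8% of all genes, and 46 of 92 lay above 0, against 49.9%. Both calls were lost without IL-1β replicate 2 at 1 day and in several other fits with 1 library left out.

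The difference between the 20-day and the 1-day effect of IL-1β was below 0 for 76 of 78 nuclear subunit genes, with a median of -0.39, while 51.4% of all genes lay above 0. Over the 8 mitochondrial members its median was 0.075, and the sign of that median turned with 1 library, from -0.13 without PBS replicate 1 at 1 day to 0.30 without IL-1β replicate 3 at 1 day. edgeR called 0 members in either direction, where 1.15% of genes were called higher and 0.989% lower. At an unadjusted p under 0.05, 1 member lay higher and 30 lower, against 8.84% and 9.54%, and DESeq2 called 1 higher and 7 lower, against 4.6% and 4.88%. The largest were Cox4i2 (-1.31 ± 0.39, adjusted p = 0.0910), Atp5g1 (-0.75 ± 0.21, adjusted p = 0.0795) and Uqcrq (-0.74 ± 0.20, adjusted p = 0.0649). For mt-Co1, the difference was 0.64 ± 0.23 (adjusted p = 0.150). Naming sets are nested in durations, so duration and set cannot be told apart here.

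Between the 2 PBS groups no member passed the test. The difference of 20 days from 1 day had a median of -0.011 over 84 nuclear and -0.048 over 8 mitochondrial members, and lay above 0 for 34 of 92, against 48.7% of all genes. Both medians turned sign with 1 library: the nuclear one was 0.19 without PBS replicate 3 at 1 day, and the mitochondrial one 0.10 without PBS replicate 1 and -0.25 without PBS replicate 2 at 1 day. edgeR called 0 members and 0% of genes in either direction, 0 members had an unadjusted p under 0.05, where 2.58% of genes lay higher and 1.78% lower, and DESeq2 called 0 members. The groups did not overlap for Atp5sl, higher at 20 days, and Uqcrc2, lower, where 3.26% and 2.65% of all genes separated. The widest difference was that of Cox7a1, at 0.64 ± 0.60, which rests on 6 to 14 counts per PBS library.

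Other genes that serve the chain were followed in lists of 153 tested genes in all. At 1 day 5 of them were called higher (3.27%) and 0 lower, where 2.52% and 1.83% of all genes were. Of 32 assembly factors of complexes II to V, Cmc2, a factor for complex IV, rose (0.54 ± 0.14, adjusted p = 0.0465), and of 14 assembly factors of complex I none passed. Among 20 genes of mitochondrial genome maintenance, Prim1, a DNA primase subunit that serves nuclear replication, rose (0.51 ± 0.13, adjusted p = 0.0399). Among 14 regulators, Gabpb2, a partner subunit of the ETS factor GABP, rose (0.43 ± 0.10, adjusted p = 0.0312). Ogdh, a citric acid cycle dehydrogenase, rose (0.43 ± 0.095, adjusted p = 0.0174) as 1 of 16 genes of the cycle, whose median was 0.22. Timm50, a receptor of the inner membrane import machinery, rose as 1 of 23 import genes (0.49 ± 0.13, adjusted p = 0.0406). None passed among 2 genes of the electron carriers outside the symbol rule, 3 further parts of ATP synthase, 19 genes of mitochondrial RNA processing and 10 antioxidant and uncoupling genes. Of the carriers, Cyc1 and Cycs, the cytochromes c1 and c, stood at 0.47 ± 0.13 and 0.41 ± 0.17 (adjusted p = 0.0531 and 0.210). Every one of the 5 calls was lost in some fits with 1 library left out, from 4 of 14 fits for Prim1 to 12 of 14 for Cmc2. All 5 were also lost with no naming set term (adjusted p from 0.0912 to 0.286) and with the replicate block (0.0585 to 0.106).

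At 20 days all 9 calls in these lists were lower (5.88% of the 153 genes), where 3.52% of all genes were called lower. Pprc1, a coactivator of the PGC-1 family that acts with NRF1, was at a mean of 127 ± 11.9 CPM (SD, n = 4) after PBS and 87.1 ± 14.7 (n = 4) after IL-1β, and fell by 0.55 on the log2 scale (adjusted p = 0.0109). Peo1, the Twinkle helicase of mitochondrial DNA replication, was at 89.9 ± 7.94 and 68.5 ± 0.995 CPM and fell by 0.39 (adjusted p = 0.0127). These 2 calls held in all 14 fits with 1 library left out. Hsd17b10, a subunit of mitochondrial RNase P (-0.48 ± 0.11), and Rexo2, an exonuclease for short RNA (-0.43 ± 0.13), fell among 19 genes of mitochondrial RNA processing, whose median was -0.19. Timm9 (-0.52 ± 0.13) and Tomm20 (-0.36 ± 0.095) fell among 23 import genes, Coa7 (-0.36 ± 0.10) and Bcs1l (-0.33 ± 0.095), assembly factors for complexes IV and III, among 32, and Txn2, mitochondrial thioredoxin (-0.39 ± 0.11), among 10 antioxidant and uncoupling genes. Adjusted p for these 7 ran from 0.0179 to 0.0495, and each call was lost in 2 to 10 of the 14 fits with 1 library left out. All 7 were lost with the 20-day libraries fitted alone (adjusted p from 0.0554 to 0.115), and all but Hsd17b10 with the replicate block (0.0550 to 0.111) and with no naming set term (0.0694 to 0.168). None passed among the electron carriers, the further parts of ATP synthase, the complex I assembly factors or the citric acid cycle at 20 days. When the 1-day effect was subtracted from the 20-day effect, Timm50 was the single call in these lists (-0.72 ± 0.17, adjusted p = 0.0442), and between the PBS groups there was none.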

How the data were processed

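RNA of 14 libraries was converted with the SMARTer v4 and NexteraXT kits and sequenced as 100-nt single-end reads, per the labels' protocols. The values used are counts per gene in the authors' deposited table, not normalized. Tools listed in the submitters' processing notes, without roles, are STAR 2.4.2a and HTSeq 0.6.1, then Trimmomatic 0.32, and DESeq2 1.12.3 beside Cuffdiff and Cufflinks 2.0.2; the build listed is GRCm38.p4. The notes do not give a counting strand.

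Genes were filtered with filterByExpr (minimum count 10), leaving 15466 of 24833, and scaled by TMM. edgeR 4.0.16 in R 4.3.3 (with limma 3.58.1) fitted naming set and an IL-1β effect per duration by robust quasi-likelihood, with 8 residual degrees of freedom, 10 for the fit of group means that compares PBS groups and 6 with an effect per naming set. Adjusted p values are Benjamini-Hochberg over all genes tested, called under 0.05, and ± after a log2 difference is its SE. DESeq2 1.42.0, other scalings, no filter, no set term, a replicate block, each duration alone and each library left out were the alternatives. TPM used GENCODE exon lengths (GRCm38). The fits were also run on simulated counts with no naming set effect and with each gene drawn independently. That setting differs from these libraries, so nothing is concluded from it.

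Members named in the text were those called, the 2 with the smallest p per complex and comparison, mitochondrial members, isoform sets and complex II, plus the 3 smallest p per pathway list. Others, such as Atp5o, Cox5b and Uqcrc2, were named after their values were seen, and some genes that the rule names are not reported here. Members and lists were chosen with earlier results of these data known. The labels describe each library as a pool of mice, and p values measure the spread between these libraries. No 2 libraries were alike within sampling noise.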

Additional observations from a re-analysis of the deposited data

Results flagged for a closer look

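In 6 of 108 groups of 4 libraries examined, 1 library lay far from the rest by Dixon's criterion, and chance flags about 1 in 20 groups. Of these, 5 concern PBS replicate 4 at 20 days. It stood highest in the complex III sum, at 1559 CPM with the other PBS libraries at 1183 to 1241. It was also highest for the complex I flavoprotein Ndufv1, at 218 CPM against 159 to 167, and for the complex III subunits Uqcrq, at 119 against 81.7 to 88.0, and Uqcrc1, at 519 against 423 to 427. For Atp5o of ATP synthase it was at 201 CPM against 140 to 147. PBS replicate 1 at 20 days was low for mt-Co1, at 834 CPM against 1053 to 1094 in the other PBS libraries.

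The IL-1β effect on Ndufa4, a complex IV subunit, differed between the set with no tag and E061316 at 20 days by -0.91 on the log2 scale, a tested difference (edgeR adjusted p = 0.0499). It was 1 of 74 members with the lower effect at an unadjusted p under 0.05, against 10% of all genes. The smallest edgeR adjusted p was 0.0531 in each of complex I, complex II and ATP synthase, so Ndufa4 did not stand apart from the other members.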

How the results depend on the processing

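Under alternatives other than leaving out a library, 143 summary values stayed within the limits set for them and 17 did not, while for single genes 406 stayed on their side of the threshold, 37 lost a call, 26 gained one and 1 changed sign. DESeq2 called 7 members higher and 1 lower at 1 day (5.42% and 4.81% of all genes) and 3 lower at 20 days (6.35%). For the difference of effects it called 1 higher and 7 lower (4.6% and 4.88%), and in E060216 against 10k 29 lower (8.12%). In the set with no tag against E061316 it called 2 higher and 3 lower (6.62% and 8.43%). With each duration alone the counts were 20 higher and 1 lower at 1 day (5.01% and 3.47% of all genes) and 0 lower at 20 days (2.28%). For E060216 against 10k they were 56 lower (7.81%), and for the sets at 20 days 0 higher and 0 lower (1.32% and 0.508%). Upper-quartile factors gave 1 lower at 1 day, where 399 of the 15466 genes tested were called lower. They gave 0 lower between the 20-day sets, and a 20-day mt-Co1 value of -0.0025 in place of 0.0091.

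The replicate block gave 0 members lower at 20 days (Cox4i2 adjusted p = 0.0557, edgeR). Same-numbered libraries correlated by -0.030, 0.12 and 0.18 at 1 day and by 0.018, 0.27, 0.11 and 0.063 at 20 days, so the numbers were not taken as a pairing, and not every library correlated best with its own number.

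Leaving out each library gave 0 to 15 members higher at 1 day (4.93% of all genes in the fit with 15) and 0 to 1 lower. At 20 days it gave 0 to 1 higher and 0 to 2 lower, and for the difference of effects 0 to 3 lower. For E060216 against 10k it gave 0 to 61 lower (10.1% of all genes in the fit with 61), with a mitochondrial median of -0.63 to -0.018. Between the 20-day sets it gave 0 to 1 higher and 0 to 3 lower. Within E060216 it gave 0 to 4 higher (2.50% of all genes in the fit with 4) and 0 to 5 lower (0.593% in the fit with 5). Within the set with no tag it gave 4 to 72 lower (10.4% of all genes in the fit with 72), with a mitochondrial median of -0.92 to -0.35. Signs changed for mt-Nd1 (-0.34 to 0.11) and mt-Nd3 (-0.51 to 0.16) at 1 day, and for Sdhd (-0.20 to 0.00055), Sdha (-0.0089 to 0.10) and mt-Co1 (-0.11 to 0.071) at 20 days. The causes were not tested. Counts of 28 to 35 per library limit the precision of Cox4i2, and 6 to 20 that of Cox7a1.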
